A study of Mus musculus with 200 samples.

Results

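The *Pax* genes encode transcription factors that share the paired box, a DNA-binding domain. The 8 members described here, *Pax1*, *Pax2*, *Pax3*, *Pax5*, *Pax6*, *Pax7*, *Pax8* and *Pax9*, were taken by symbol from a table of 22033 genes, and all 8 were found in it. *Pax1* and *Pax9* are known from the sclerotome, the part of the somite that forms vertebrae and ribs. *Pax3* and *Pax7* are known from the dorsal neural tube, the neural crest and the muscle-forming dermomyotome. *Pax2*, *Pax5* and *Pax8* are known from the midbrain-hindbrain boundary and, in the case of *Pax2* and *Pax8*, from the kidney and ear, while *Pax6* is a regulator of the eye, forebrain and pancreas.

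Whole mouse embryos at embryonic day 11.5, freed of extra-embryonic tissue, were profiled individually by 3SEQ, an RNA-seq method that reads the 3′ ends of poly(A) transcripts. The 16 F1 embryos were hybrids of 2 inbred strains, C57BL/6J (B6) and CAST/EiJ (Cast), and carried 1 B6 and 1 Cast allele at every autosomal gene. There were 8 embryos of B6 mothers and Cast fathers (B6 × Cast, litters 3 and 5) and 8 of the reciprocal cross (Cast × B6, litters 1 and 2). The N2 embryos came from backcrosses of (B6 × Cast)F1 animals to B6 in both directions, 89 from B6 females and 65 from F1 females, so that each N2 embryo was either B6 homozygous or B6/Cast heterozygous at a given gene. No treatment was given in any group. Every N2 embryo carried B6 mitochondria. The number of somites, the paired blocks of the trunk that are added as the embryo grows, was recorded as a measure of stage and was 41 to 63 in the F1 embryos and 42 to 57 in the 147 N2 embryos that had a record.

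The F1 embryos had 15703888 to 38234229 reads on genes each and the N2 embryos 245220 to 5370322, so that levels and allele fractions of weakly expressed members were far less precise in single N2 embryos. Levels are given as reads per 1000000 reads on genes (RPM). Each embryo is a separate animal, but littermates share a mother and mostly a sequencing run, and p-values measure the spread between these embryos. The whole embryo was homogenized, so fewer cells of a type and less RNA per cell cannot be told apart. Of the 8 placenta and yolk sac markers, *Prl3d1*, *Prl2c2*, *Ctsq* and *Psg21* had no read in any embryo, and the summed level of the list did not exceed 3.89 RPM in any F1 embryo or 7.99 RPM in any N2 embryo.

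The levels of *Pax3*, *Pax6* and *Pax9* differed widely between the 14 sequencing lanes of the N2 embryos, labelled A to N. In *Pax3*, lane medians were 2.10 to 4.72 RPM in lanes A to I, 13.7 RPM in lane J and 31.0 to 45.0 RPM in lanes K to N. *Pax6* followed the same division, with lane medians of 0.762 to 1.91 RPM in lanes A to I, 4.10 RPM in lane J and 5.49 to 11.4 RPM in lanes K to N. In *Pax9* the medians were 0 to 0.579, 0.797 and 1.69 to 3.76 RPM. The mean level in the 45 embryos of lanes K to N was 10.5 times that in the 98 embryos of lanes A to I for *Pax3*, 7.80 times for *Pax6* and 8.08 times for *Pax9*. The same ratio was 1.46 for *Pax1*, 1.2 for *Pax8*, 0.964 for *Pax7* and 0.808 for *Pax2*. Over all 13145 genes whose mean reached 1 RPM the median ratio was 1.35, and 18.8% of them had a ratio over 5, so *Pax3*, *Pax6* and *Pax9* had many companions. This division of lanes was made after the values had been seen and is given as a description. Lane accounted for 80.6% of the variance of *Pax3*, 66.2% of that of *Pax6* and 52.5% of that of *Pax9* on the log2(RPM + 0.5) scale, against 54.6% for the median gene. Litter accounted for 71.9%, 64.2% and 49.7% in the same order, against 56.0% for the median gene. Each lane held 2 to 5 litters, so the shares of lane and litter overlap. Of the 14 lanes, 13 held embryos of 1 kind of mother only, and the lanes differed in somite number. Somite number, mother and litter were thus partly confounded with lane in all N2 values that follow.

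**Figure D1:**
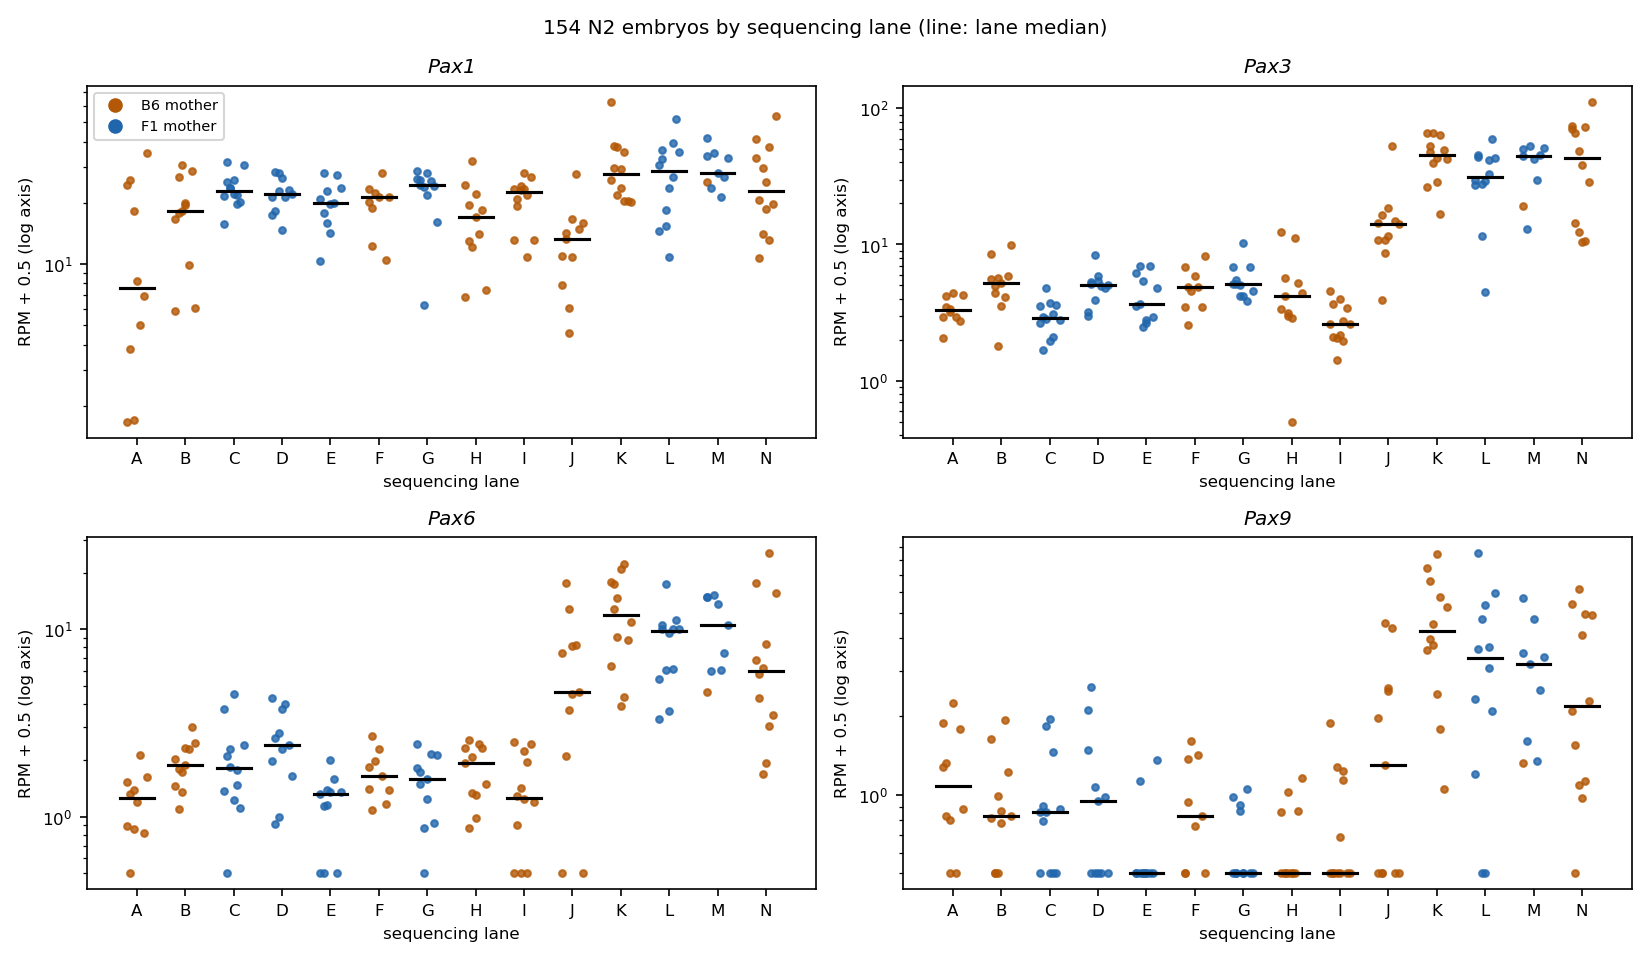
Levels of *Pax1*, *Pax3*, *Pax6* and *Pax9* (RPM + 0.5, log axis) in each of the 154 N2 embryos by sequencing lane, coloured by mother, with a line at the median of each lane. The points of *Pax3*, *Pax6* and *Pax9* lie higher in lanes K to N than in lanes A to I, with mean ratios of 10.5, 7.80 and 8.08, against 1.46 for *Pax1*.

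The F1 litters gave the members' levels by stage at high depth. *Pax3* was lower in the older litter of each cross, and *Pax5* and *Pax6* were lower in the older litter of B6 × Cast. Within B6 × Cast, 3 of the 8 members passed the test between litter 3 (58 and 63 somites in the labelled embryos) and litter 5 (48 to 50 somites), each lower in the older litter, where 15.0% of the 15271 genes tested passed in either direction. Within Cast × B6, 1 of 8 passed between litter 2 (46 to 48 somites) and litter 1 (41 to 43 somites), where 29.1% of genes passed. These calls are from edgeR's quasi-likelihood test with a Benjamini-Hochberg adjusted p under 0.05, in 1 fit over all 16 embryos. Litter and stage cannot be told apart in these contrasts. The 2 B6 × Cast litters were sequenced on the same runs, but of the Cast × B6 litters each had a run the other lacked, so there the run cannot be told apart from the litter either. The summed level of 7 red blood cell markers also differed between the litters. It was 98660 to 133200 RPM in litter 1 and 53710 to 66820 RPM in litter 2. It was 71650 to 89830 RPM in litter 5 and 27580 to 37360 RPM in litter 3, so it did not fall steadily with stage. Its largest part was the fetal beta-globin *Hbb-y*, with a mean of 44660 RPM over the F1 embryos. Single markers moved in both directions. Between litters 3 and 5, 2 of the 7 were called higher and 3 lower, against 7.14% and 7.84% of all genes. The part of the sum in the levels of the *Pax* genes was not tested.

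*Pax3* had levels of 14.8, 16.4, 15.7 and 15.6 RPM in litter 1, the youngest, and 10.5, 11.8, 11.0 and 8.45 RPM in litter 2. In B6 × Cast it had 12.4, 9.93, 8.85, 11.2 and 10.9 RPM in litter 5 and 4.86, 9.15 and 7.82 RPM in litter 3. Litters 1 and 2 did not overlap, and a single embryo of litter 3 reached the range of litter 5. The difference was a log2 fold change of -0.71 ± 0.16 (SE) in Cast × B6 (edgeR adjusted p = 0.00413) and -0.73 ± 0.17 in B6 × Cast (edgeR adjusted p = 0.0106). The litters closest in stage, 5 and 2, had means of 10.7 ± 1.35 RPM (SD, n = 5) and 10.4 ± 1.43 RPM (SD, n = 4).

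*Pax5* had 0.128, 0.176 and 0.405 RPM in litter 3, which came from 4 to 13 reads per embryo, and 1.21, 0.483, 0.573, 0.987 and 1.02 RPM in litter 5. All embryos of litter 3 lay below all of litter 5, with a log2 fold change of -2.02 ± 0.44 (edgeR adjusted p = 0.00783). In Cast × B6, where litter 1 had 0.392 to 1.131 RPM and litter 2 had 0.313 to 0.630 RPM, the log2 fold change was -0.80 ± 0.40 and the test was not passed (edgeR adjusted p = 0.140).

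*Pax6* had 3.33, 3.55 and 3.02 RPM in litter 3 against 5.33, 4.55, 4.52, 4.12 and 5.45 RPM in litter 5, again without overlap (log2 fold change -0.71 ± 0.17, edgeR adjusted p = 0.0128). Without the embryo 3-4, 2 embryos were left in litter 3 and the adjusted p rose to 0.0701. Litters 1 and 2 spanned 3.45 to 5.37 and 3.93 to 5.86 RPM and had a log2 fold change of -0.01 ± 0.16. Whether the change between litters differed between the crosses was not tested for any member.

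*Pax1*, which patterns the ventral sclerotome, had 54.9, 53.9 and 55.1 RPM in litter 3, above all 13 other F1 embryos, which spanned 26.5 to 45.2 RPM. Its log2 fold change over litter 5 was 0.26 ± 0.11, and it was not called (edgeR adjusted p = 0.143). The test used reads scaled by the trimmed mean of M-values, which shifted the comparison relative to RPM, and the median gene had a log2 fold change of 0.05. *Pax9*, the close relative of *Pax1*, had 1.122 to 1.855 RPM in litter 3 and 1.344 to 2.649 RPM in litter 5, with a log2 fold change of -0.56 ± 0.25 (edgeR adjusted p = 0.145). The 2 sclerotome members thus had estimates of opposite sign in these litters, neither past the threshold.

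*Pax7*, the relative of *Pax3*, spanned 3.81 to 7.45 RPM in all F1 embryos except embryo 3-1, the oldest with a somite record, which had 2.56 RPM. That embryo also had the lowest *Pax3* level of the 16. *Pax7* was not called in either cross, with a log2 fold change of -0.30 ± 0.24 between litters 3 and 5 and of -0.52 ± 0.23 between litters 2 and 1 (edgeR adjusted p = 0.416 and 0.106). *Pax2* and *Pax8*, which act together in the kidney and ear, had log2 fold changes of 0.02 ± 0.19 and 0.02 ± 0.25 between litters 3 and 5. Between litters 2 and 1 they had -0.34 ± 0.19 and -0.31 ± 0.25, and neither passed (edgeR adjusted p = 0.194 and 0.395).

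**Figure D2:**
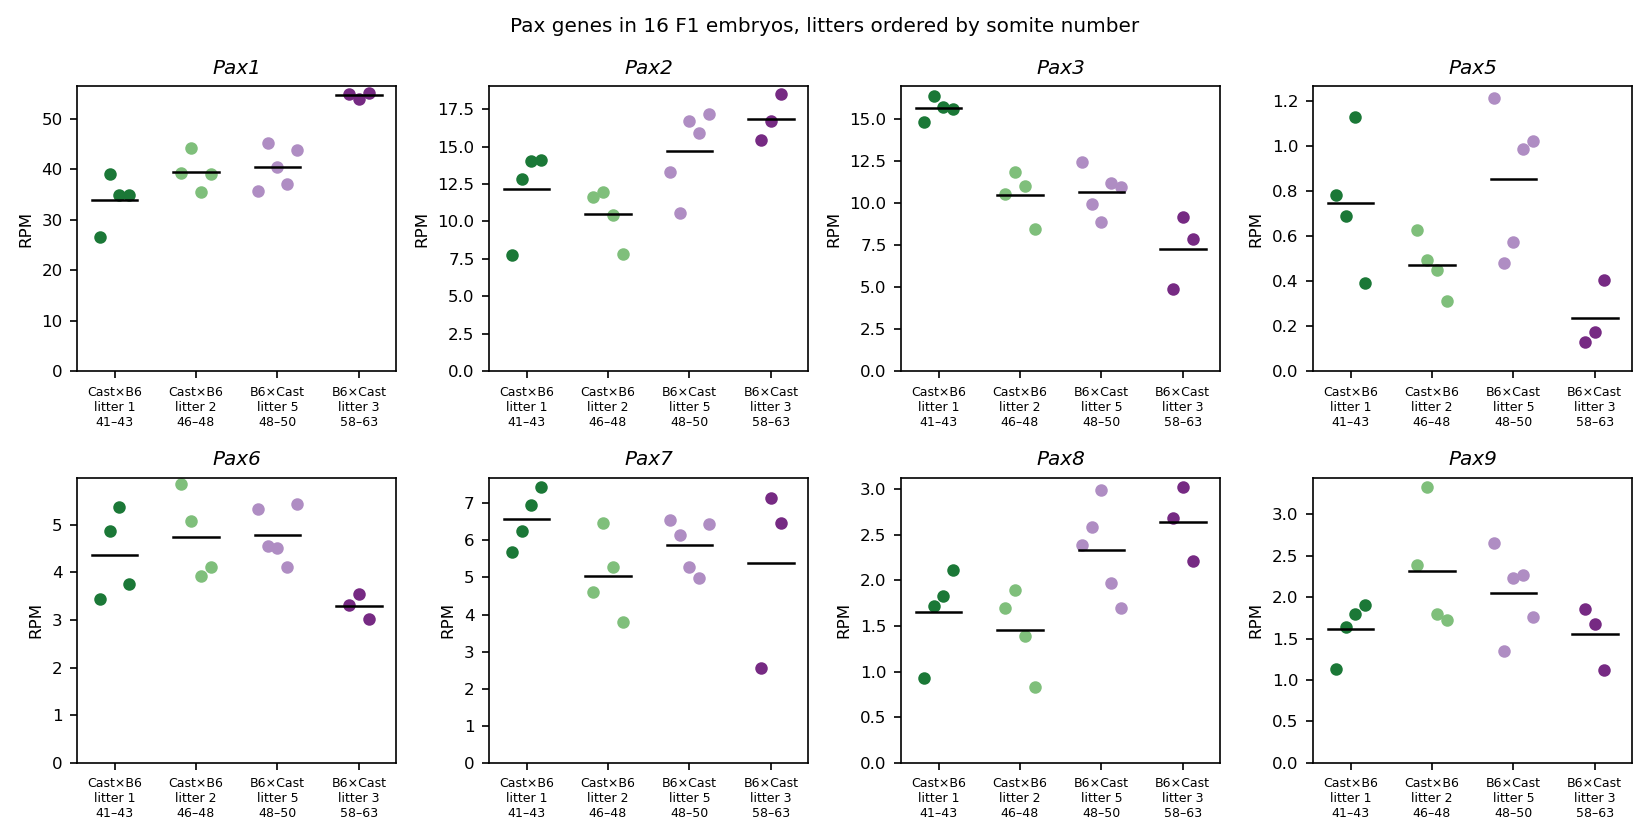
Levels (RPM) of the 8 *Pax* members in each of the 16 F1 embryos by litter, ordered by stage, with litter means. *Pax3* stepped down within each cross, *Pax5* and *Pax6* were lowest on average in litter 3, and *Pax1* was highest there, at 53.9 to 55.1 RPM.

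The litters closest in stage also compared the crosses, with 48 to 50 somites in litter 5 of B6 × Cast and 46 to 48 somites in litter 2 of Cast × B6. A single litter stood for each cross, and each litter had a sequencing run the other lacked. Cross, litter, run and stage thus cannot be told apart in this contrast. None of the 8 members passed, where 11.8% of genes did. At an unadjusted p under 0.05, 3 members and 27.3% of genes did: *Pax2* was at 10.6 to 17.2 RPM in litter 5 and 7.83 to 12.0 RPM in litter 2 (log2 fold change 0.56 ± 0.18, edgeR adjusted p = 0.0576), *Pax8* at 1.698 to 2.993 and 0.835 to 1.89 RPM (0.73 ± 0.24, edgeR adjusted p = 0.0635) and *Pax5* at 0.483 to 1.21 and 0.313 to 0.630 RPM (0.94 ± 0.39, edgeR adjusted p = 0.127). With DESeq2, *Pax2* and *Pax8* passed in this contrast, with adjusted p = 0.0341 and 0.0444, as 13.7% of 15170 genes did.

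In the N2 embryos *Pax2* rose and *Pax3* fell with somite number. Of the 7 members whose mean reached 1 RPM, these 2 passed (Spearman's correlation, Benjamini-Hochberg q under 0.05), where 18.9% of 13145 genes did. *Pax2* had medians of 8.26 RPM at 42 to 45 somites (n = 21), 10.6 at 46 and 47 (n = 34), 9.43 at 48 and 49 (n = 24), 12.2 at 50 to 52 (n = 54) and 14.3 RPM at 53 to 57 somites (n = 14). Its rho was 0.388 (q = 3.66e-05) and its Pearson's r 0.373 over 147 embryos, each with a permutation p of 1e-05, the smallest that 100000 permutations can give. Its r was 0.357 when the 2 embryos of most extreme stage were left out. *Pax3* had medians of 6.51, 9.64, 4.77, 4.52 and 3.46 RPM in the same intervals, with single embryos from 0 to 110.8 RPM. Its rho was -0.229 (q = 0.0329, permutation p = 0.00548) and its r was -0.225 (permutation p = 0.00591), or -0.188 with the same 2 embryos left out. For both members the permutations moved somite number freely over the embryos. They took no account of lane or litter, so their p-values do not cover the spread between lanes or litters.

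Neither relation passed within lanes. With lane regressed out of the ranks rho was -0.241 for *Pax3* (q = 0.0502) and 0.131 for *Pax2* (q = 0.396), a test that 10.1% of all genes passed. Within single lanes rho was negative for *Pax3* in 8 of 14 lanes, with a median of -0.245, and positive for *Pax2* in 6 of 14, with a median of -0.062. With lane C, H, I, K or N left out, the *Pax3* correlation no longer passed and lay between -0.209 and -0.133, while that of *Pax2* passed without any 1 of the 14 lanes. On the means of the 29 litters, rho was 0.436 for *Pax2* and -0.416 for *Pax3*, and neither passed (q = 0.294 and 0.330).

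The slope of *Pax3* on somite number differed between the kinds of mother. In embryos of B6 mothers rho was -0.414 (q = 0.000648), with medians of 10.1 RPM at 42 to 45 somites and 3.13 RPM at 53 to 57, and in embryos of F1 mothers it was 0.088 (q = 0.643), with medians of 4.85 and 3.68 RPM. The difference of the log2 slopes per somite, B6 minus F1 mothers, was -0.40 ± 0.10 for *Pax3* (edgeR adjusted p = 0.00156), -0.37 ± 0.10 for *Pax6* (edgeR adjusted p = 0.00355) and -0.32 ± 0.12 for *Pax9* (edgeR adjusted p = 0.0256). These were 3 of the 7 members tested, where 42.0% of all genes passed, and they were the 3 members with the high levels in lanes K to N. Lane K and lane N held embryos of B6 mothers with median somite numbers of 46 and 45.5, and lane L embryos of F1 mothers with a median of 50, so that slope, mother and lane cannot be told apart here. With litter as a random block in limma voom none of the 7 passed, with unadjusted p from 0.0983 (*Pax3*, adjusted p = 0.850) to 0.707 (*Pax8*).

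The other members gave no call for somite number over all embryos. *Pax8* had rho = 0.144 (q = 0.210), *Pax1* 0.120 (q = 0.309), *Pax7* -0.101 (q = 0.403), *Pax9* -0.071 (q = 0.577) and *Pax6* -0.005 (q = 0.977). For *Pax6* the pooled value was near 0 while the embryos of B6 mothers gave -0.247 (q = 0.0473) and those of F1 mothers 0.358 (q = 0.0286). Other members passed in part of the embryos as well. *Pax8* had rho = 0.3495 in embryos of F1 mothers (q = 0.0329) and 0.366 in flowcell 1 (q = 0.0209), *Pax1* 0.356 in flowcell 1 (q = 0.0258) and *Pax9* -0.263 in embryos of B6 mothers (q = 0.0345). Of all genes 48.4% passed in embryos of B6 mothers, 20.4% in those of F1 mothers and 13.3% in flowcell 1. *Pax5* had no read in 143 of 154 N2 embryos and a mean of 0.0397 RPM, and a change of it was not detectable at this depth.

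**Figure D3:**
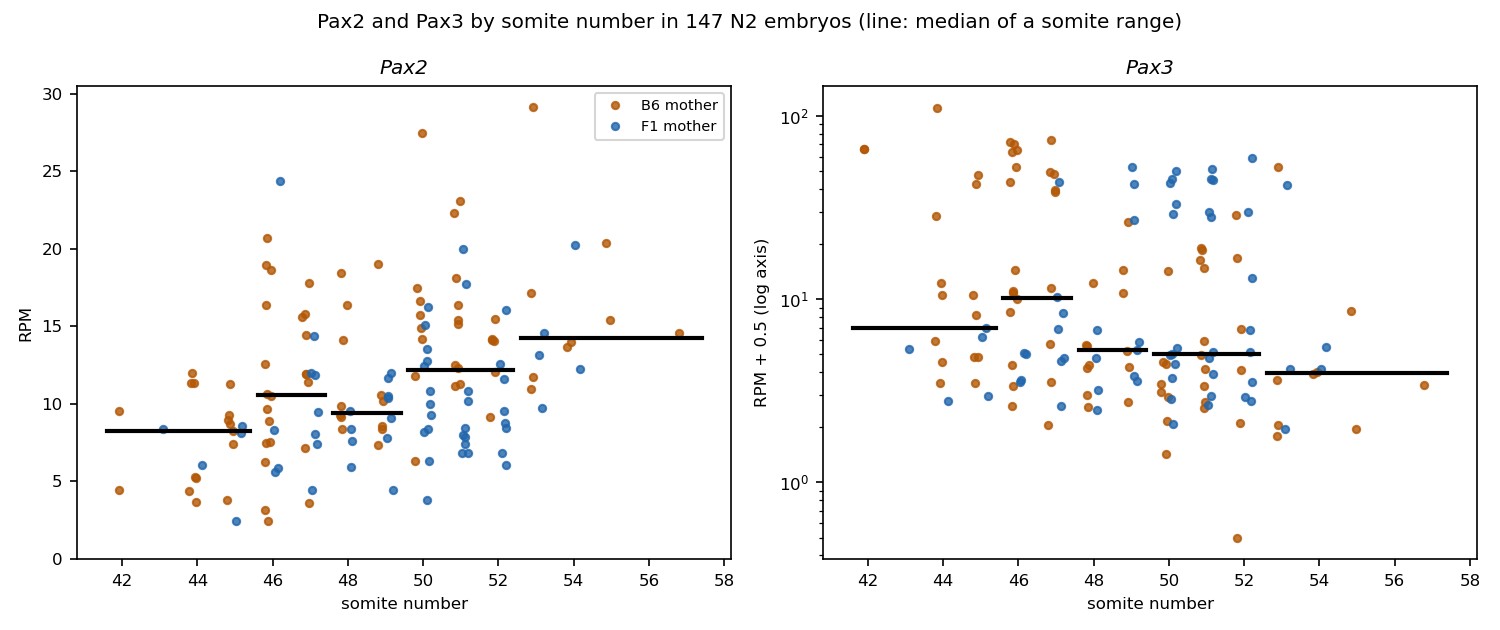
Levels of *Pax2* (RPM) and *Pax3* (RPM + 0.5, log axis) in the 147 N2 embryos against somite number, coloured by mother, with a line at the median of each somite interval. The medians of *Pax2* went from 8.26 RPM in the youngest interval to 14.3 RPM in the oldest and those of *Pax3* from 6.51 to 3.46 RPM.

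No member differed by mother in the N2 embryos (Mann-Whitney U test, Bonferroni-adjusted p under 0.01), where 3.86% of genes did, and 2 of 7 members and 35.6% of 13145 genes had an unadjusted p under 0.05. *Pax1* had a median of 19.4 RPM, with a range of 1.169 to 62.1, in the 89 embryos of B6 mothers and 23.2 RPM, with a range of 5.78 to 51.3, in the 65 of F1 mothers (unadjusted p = 0.00163). *Pax2* had medians of 11.4 and 9.06 RPM (unadjusted p = 0.00394). Both had an adjusted p of 1, and edgeR's adjusted p was 1 as well. A permutation of mothers over the 29 litter means gave p = 0.0598 for *Pax1* and 0.216 for *Pax2*. The Mann-Whitney U test on the litter means gave an unadjusted p of 0.00565 for *Pax1* and 0.364 for *Pax2*. In that test 1570 of 13145 genes had an unadjusted p under 0.05, and 0 passed after adjustment. The adjusted p was 1 for *Pax3*, whose medians were 5.16 and 4.62 RPM, and for the other members.

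Allele-specific expression was measured by the B6 allele fraction (BAF), the share of reads over known SNPs that carried the B6 allele, where 0.5 stands for equal expression. *Pax1* had more reads from its Cast allele, with a BAF of 0.432, and was the only member called of 6 tested (Bonferroni-adjusted p = 3.96e-08, paired test of B6 against Cast votes over F1 and heterozygous N2 embryos, BAF outside 0.45 to 0.55). The same test called 18.9% of 9084 genes. *Pax1* lies on chromosome 2 at 147187661 to 147219031 of the mm9 build, on the + strand, and 69.6% of its F1 reads gave a vote, the largest share among the members.

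The size of the *Pax1* bias differed between the generations. In the F1 embryos the 5858 B6 votes and 7066 Cast votes gave 0.453, with a Wilson 95% interval of 0.445 to 0.462 that covers counting error only. The BAF was 0.443, 0.463 and 0.465 in litter 3, and 0.427, 0.459, 0.429, 0.435 and 0.478 in litter 5. It was 0.525, 0.461, 0.281 and 0.472 in litter 1, and 0.434, 0.526, 0.448 and 0.459 in litter 2. It lay below 0.5 in 14 of 16 F1 embryos, and embryo 1-3 stood apart at 0.281. The mean of the fractions per embryo was 0.4503 (exact two-sided sign-flip permutation test against 0.5, p = 0.000427). That test takes littermates as independent. With F1 embryos alone the mean difference did not reach the adjusted threshold over 11598 genes, and the BAF lay inside the window. In the 79 heterozygous N2 embryos 898.5 B6 and 1808 Cast votes gave 0.332 (0.3144 to 0.3498), which was called on its own (Bonferroni-adjusted p = 2.64e-06).

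The N2 value depended on the lane. The BAF of *Pax1* was 0.0971 in the 4 heterozygous embryos of lane A, 0.142 in lane B (n = 5), 0.224 in lane C (n = 9), 0.222 in lane H (n = 4), 0.278 in lane I (n = 5) and 0.25 in lane J (n = 5, with 16 votes). It was 0.393 in lane L (n = 9), 0.406 in lane F (n = 5), 0.434 in lane D (n = 2), 0.436 in lane M (n = 7), 0.463 in lane K (n = 6), 0.473 in lane G (n = 5), 0.512 in lane E (n = 6) and 0.523 in lane N (n = 7). Lanes A, B, H, I and J held embryos of B6 mothers and lane C embryos of F1 mothers. Among the higher lanes, F, K and N held embryos of B6 mothers, D, E, G and L of F1 mothers, and M of both. Pooled over lanes, the BAF was 0.2896 (Wilson 95% interval 0.2665 to 0.3144) in 41 heterozygous embryos of B6 mothers. It was 0.3757 (0.3502 to 0.4022) in 38 of F1 mothers. The fractions per embryo gave an unadjusted p of 0.119 in a Mann-Whitney U test. Mother and lane cannot be told apart in these values. A quasi-binomial model of the votes on lane passed for *Pax1* (Benjamini-Hochberg q = 6.53e-09), where 11.0% of 7251 genes did, and not for *Pax2* (q = 0.501) or *Pax7* (q = 0.411), the other members with at least 150 votes. Without lanes A and B the N2 value was 0.374 and the call held (Bonferroni-adjusted p = 0.000714). In B6 homozygous embryos 2 of 2018 votes were for Cast, but the genotypes had been inferred from the same kind of votes, so this is not an independent check. The share of *Pax1* reads with a vote was 74.4% to 91.9% in heterozygous embryos of lanes A to I and 23.7% to 42.1% in lanes J to N.

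**Figure D4:**
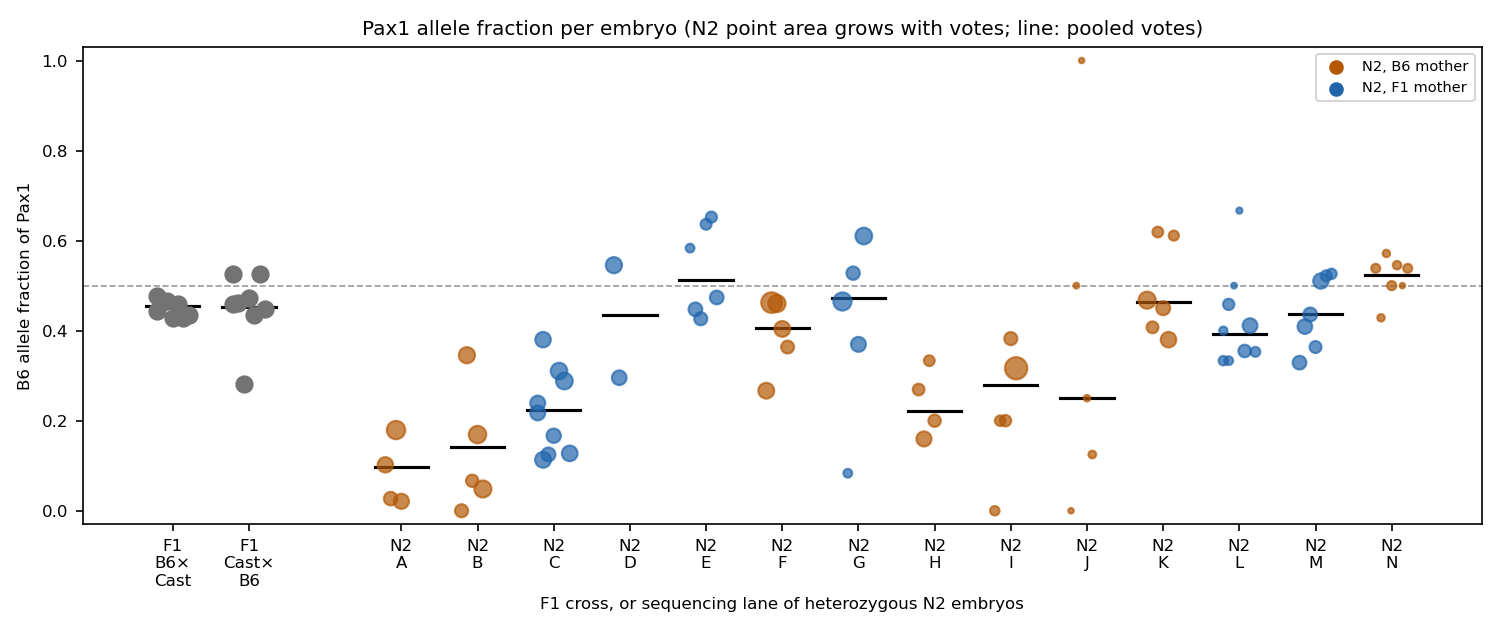
B6 allele fraction of *Pax1* in each F1 embryo by cross and in each heterozygous N2 embryo by lane, coloured by mother and with an area that grows with the votes in N2. Solid lines give the fraction of pooled votes and the dashed line equal expression at 0.5. The F1 embryos sat at 0.427 to 0.526 except for 0.281 in 1 embryo, and the pooled N2 values ran from 0.0971 in lane A to 0.523 in lane N.

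The other members had fewer informative reads. *Pax2* had a BAF of 0.547, with 672 B6 and 569 Cast votes in F1 embryos and a range of 0.381 to 0.75 over them. Its estimate lay above 0.5 in F1 (0.541) and in heterozygous N2 embryos (0.584), and its unadjusted p of 0.0118 did not survive the adjustment. *Pax7* was at 0.497, from 386 and 372 F1 votes, *Pax8* at 0.532, *Pax9* at 0.565 and *Pax3* at 0.594, and each had a Bonferroni-adjusted p of 1. For *Pax3* this rested on 112 F1 votes, since only 2.16% of its reads covered a SNP, with a Wilson 95% interval of 0.488 to 0.668 for the F1 value of 0.580. *Pax6*, with 17 B6 and 27 Cast votes in F1 embryos, and *Pax5*, with 4 votes in all, were below the minimum of 20 votes per cross.

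No member tested was called for an allele fraction that differed with the direction of the F1 cross, as that of imprinted genes does. Of 6 members tested none passed (exact two-sided permutation test of 8 against 8 embryos, q under 0.05), where 1.02% of 10611 genes did, and none had an unadjusted p under 0.05, as 1251 genes did. *Pax1* had a mean BAF of 0.45 ± 0.019 (SD, n = 8) with a B6 mother and 0.451 ± 0.077 (n = 8) with a Cast mother. The mean difference in BAF was -0.116 for *Pax3*, the widest of the 6, with an unadjusted exact permutation p of 0.298. *Pax5* and *Pax6* had too few votes for the test. The pooled BAF of *Pax6* was 0.222 from 18 votes with a B6 mother and 0.5 from 26 votes with a Cast mother.

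In the N2 embryos *Pax1* was higher where it was heterozygous. Its level was 24.1 ± 1.102 RPM (SEM) in the 79 heterozygous embryos and 18.5 ± 1.012 RPM in the 75 homozygous ones, a ratio of 1.302. On log2(RPM + 0.5) with lane, sex, somite number and 15 principal components removed, the difference was 0.30 and was called (rank-sum test, Benjamini-Hochberg q = 0.00186 over 12722 genes), the only call among 7 members, where 23.7% of genes passed. A gene whose B6 allele gives the same output in both genotypes would have, from the Cast share of its votes, a ratio of 1.103 by the F1 fraction and 1.506 by the N2 fraction, with the measured ratio in between. The red blood cell sum moved with this comparison, with a median of 67720 RPM in heterozygous and 85370 RPM in homozygous embryos. Its part in the *Pax1* difference was not tested.

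The *Pax1* difference was 0.40 in embryos of B6 mothers (q = 0.00605), where homozygous embryos had a median of 18.0 and heterozygous ones 21.2 RPM. It was 0.08 in embryos of F1 mothers (q = 0.247), with medians of 22.3 and 24.2 RPM, and the difference between the 2 kinds of mother did not pass over all genes (unadjusted p = 0.0108, q = 0.460). The call was lost with lane, sex and somite number as the only covariates (q = 0.0229), with no covariates (q = 0.0126) and in edgeR with lane as a covariate (adjusted p = 0.0536). *Pax6* lies on the same chromosome at 105509053 to 105543317 and had the same genotype as *Pax1* in 135 of 154 embryos (87.7%), with an own-genotype difference of 0.12 (q = 0.319).

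*Pax7* had 2.93 ± 0.165 RPM (SEM) in 79 heterozygous and 1.97 ± 0.147 RPM in 75 homozygous embryos, a ratio of 1.48. Its difference of 0.32 did not pass the threshold of 0.01 (q = 0.0193), but did with 5 principal components (q = 0.00347), with lane, sex and somite number only (q = 0.00636), with no covariates (q = 0.000579), in embryos with at least 1000000 reads (q = 0.00128) and in edgeR (adjusted p = 0.00596). It did not pass on log2(RPM + 1) (q = 0.0157), among all genes with a read (q = 0.0255), in embryos of B6 mothers (q = 0.0330) or in those of F1 mothers (q = 0.529). Its allele fraction in the F1 embryos, 0.509, would give a ratio of 0.982, and that in heterozygous N2 embryos, 0.438 from 160 votes, a ratio of 1.143. *Pax9* was at 0.857 RPM in heterozygous and 1.67 RPM in homozygous embryos, but with the covariates removed its difference was 0.09 (q = 0.566). *Pax2*, *Pax3* and *Pax8* had differences of 0.03, -0.12 and -0.10, none called (q = 0.925, 0.345 and 0.470).

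**Figure D5:**
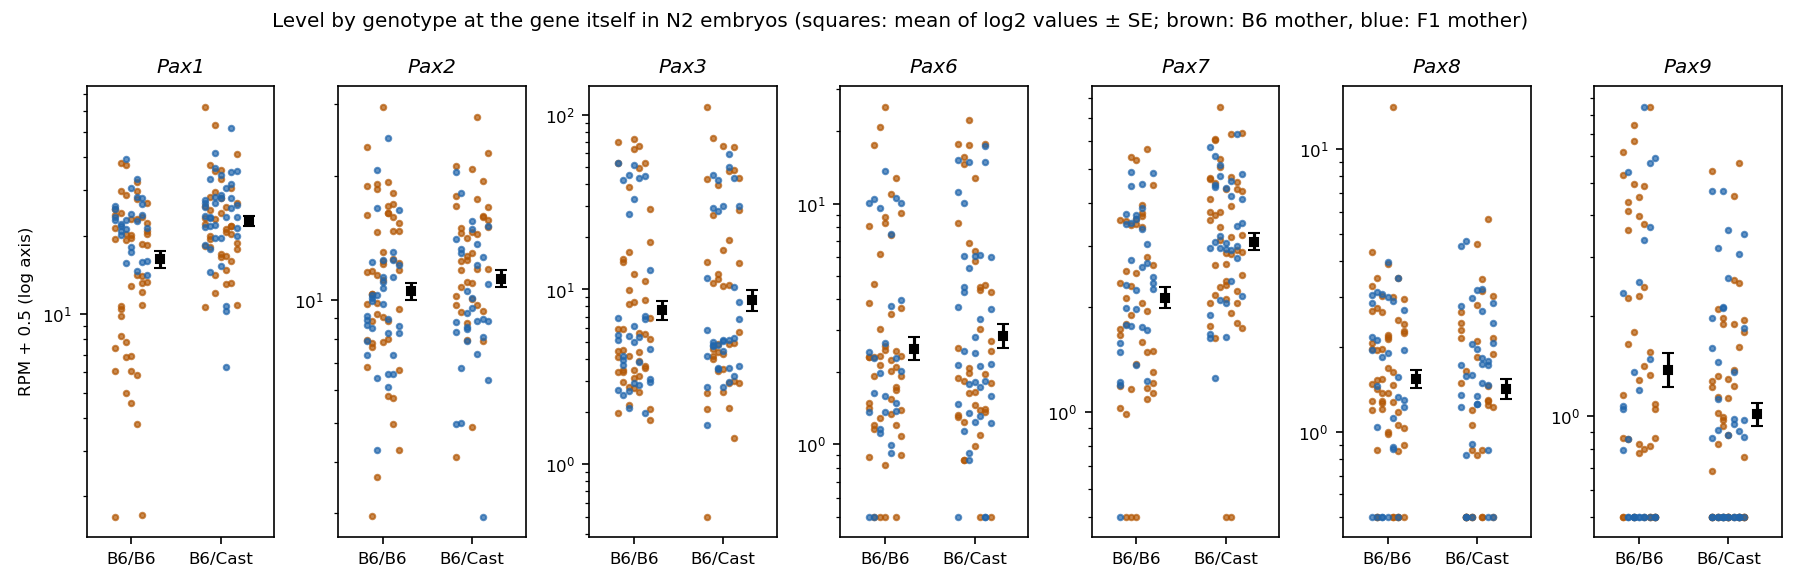
Levels (RPM + 0.5, log axes) of 7 *Pax* members in N2 embryos homozygous (B6/B6) or heterozygous (B6/Cast) at the gene itself, coloured by mother, with squares and bars for the mean ± SE of the log2 values. By their arithmetic means *Pax1* had 24.1 RPM in heterozygous and 18.5 RPM in homozygous embryos and *Pax7* 2.93 and 1.97 RPM.

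With lane regressed out, the pairs with the highest Spearman's rho over 154 N2 embryos were *Pax3* with *Pax6* at 0.418, *Pax1* with *Pax3* at 0.289 and *Pax6* with *Pax9* at 0.285, while *Pax1* with *Pax9* gave 0.194 and *Pax3* with *Pax7* 0.230. Over the 16 F1 embryos *Pax1* with *Pax3* gave -0.765, the opposite sign. The highest F1 values were 0.682 for *Pax5* with *Pax6*, 0.621 for *Pax3* with *Pax5* and 0.585 for *Pax2* with *Pax8*. These values describe embryos that share litters, lanes and stage. The red blood cell sum was compared with the members on RPM over the N2 embryos, without lane regressed out. It had a rho of -0.475 with *Pax1*, -0.453 with *Pax3*, -0.525 with *Pax6* and -0.478 with *Pax9*. With the other members rho lay between -0.143 and 0.022. Differences between lanes are thus part of these values, unlike those of the N2 pairs above.

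The genes most like each member over N2 embryos, with lane regressed out, were named by their Spearman's rho. For *Pax1* they were *Mapre1*, *Ptpra* and *Kif5c*, with rho of 0.571 to 0.589, and all 3 lie on chromosome 2 as *Pax1* does. Over the F1 embryos their rho with *Pax1* was 0.191 to 0.471, and whether the shared chromosome plays a part was not tested. For *Pax3* they were *Clspn*, *Grsf1* and *Nbn* (0.562 to 0.573), which had rho of 0.776, 0.241 and -0.076 with it in the F1 embryos. *Skil*, *Cyp26b1* and *Zmym2* were closest to *Pax6* (0.523 to 0.554), although *Zmym2* had -0.606 with it in the F1 embryos. *Ptms*, *Nfic* and *Lhx5* were closest to *Pax2* (0.506 to 0.516), and *Ivns1abp*, *Slc38a2* and *Hnrnpd* to *Pax9* (0.482 to 0.510). *Clmn*, *Srrm1* and *Usp42* were closest to *Pax7* (0.420 to 0.441), *Pepd*, *Mosc2* and *Trem2* to *Pax8* (0.353 to 0.366), and *Stx18*, *Dnm1l* and *Uspl1* to *Pax5* (0.194 to 0.227), for which the near absence of reads leaves these values without weight.

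Genes that work beside the members were read from 5 lists, and their counts stand against the shares of all genes called in the same direction. In the older litter 7.84% of genes were lower and 7.14% higher in B6 × Cast, and 14.0% were lower and 15.0% higher in Cast × B6. In the N2 embryos 12.4% of genes rose and 6.56% fell with somite number. Of 12 dermomyotome and dorsal neural tube genes, which accompany *Pax3* and *Pax7*, 6 were called lower in litter 3 than in litter 5 and none higher, with a median log2 fold change of -0.71 against 0.05 over all genes. Between litters 2 and 1, 2 were lower, near the share over all genes, and none higher. In the N2 embryos 3 of the 9 tested fell with somite number and none rose, with a median rho of -0.173 against -0.024 over all genes. *Tcf15*, a regulator of the epithelial somite, had rho = -0.378 (q = 6.25e-05) and *Msx1*, of the dorsal neural tube, -0.323 (q = 0.00113), and both also passed with lane regressed out (q = 1.64e-06 and 0.00470), which *Pax3* did not. *Msx2* had -0.219 (q = 0.0433), or -0.061 (q = 0.741) with lane regressed out.

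Of 12 genes of the midbrain-hindbrain boundary, kidney and ear, listed beside *Pax2*, *Pax5* and *Pax8*, 2 rose and 1 fell with somite number, near the shares over all genes. *Fgf8*, the signal of that boundary, fell with rho = -0.476 (q = 7.70e-08). *Osr1*, an early kidney regulator, rose with 0.384 (q = 4.67e-05), as did *Lhx1*, which acts with *Pax2* in the kidney, with 0.236 (q = 0.0270). As for *Pax2*, the rise of *Osr1* and *Lhx1* did not pass with lane regressed out (q = 0.128 and 0.353), while the fall of *Fgf8* did (q = 8.49e-06). Between F1 litters 3 and 5, 4 of the 12 were lower and none higher, against 7.84% and 7.14% of all genes. Between litters 2 and 1, 3 were lower and 1 higher, against 14.0% and 15.0% of all genes. *Lhx1*, which rose in the N2 embryos, was lower in the older B6 × Cast litter, with a log2 fold change of -0.78 ± 0.17 (edgeR adjusted p = 0.00856), and had 0.42 ± 0.16 in Cast × B6 (edgeR adjusted p = 0.0666). *Fgf8* had log2 fold changes of -1.36 ± 0.17 and -1.26 ± 0.16 (edgeR adjusted p = 0.000328 and 0.000102).

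Of 10 sclerotome genes beside *Pax1* and *Pax9*, none of the 8 tested was called for somite number. Between F1 litters none was called in B6 × Cast, where 15.0% of all genes were called in either direction. In Cast × B6, where 29.1% were, 3 were higher and 1 lower. The 3 with the smallest q, *Tbx18*, *Meox2* and *Foxc2*, had rho of -0.174, -0.119 and -0.081 (q = 0.123, 0.316 and 0.519). Of 12 eye and forebrain genes beside *Pax6*, none of the 10 tested was called for somite number. Between F1 litters 2 were lower in the older B6 × Cast litter, as 7.84% of all genes were. In Cast × B6, 1 was higher and 1 lower, 2 of 12 against 29.1% of all genes in either direction. *Six3* and *Tbr1* had rho of 0.145 and 0.132 (q = 0.207 and 0.259). Of 12 genes of the sine oculis homeobox, *Eya* and *Dach* families, which act with *Pax* proteins in several tissues, 1 rose (*Six2*, rho = 0.240, q = 0.0237) and 1 fell (*Eya3*, -0.217, q = 0.0449) of 10 tested. In each cross 3 of these 12 were lower in the older F1 litter and none higher. Of all genes, 7.84% were lower in B6 × Cast and 14.0% in Cast × B6, where 29.1% were called in either direction.

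Some *Pax* reads cannot be assigned with certainty, since whether counting used strand is not given in the sources used here. *Pax6* overlaps *Pax6os1* and *Elp4* on the opposite strand, *Pax9* overlaps *Slc25a21* on the opposite strand and *Gm15524* on its own strand, and *Pax1* overlaps *AI646519* on the opposite strand, by the mm9 annotation. *Pax2* overlaps *Gm20395* and *1700039E22Rik*, *Pax5* overlaps *Gm12462* and *Pax8* overlaps *Gm13415*, all on the opposite strand, and *Pax5* and *Pax8* each also overlap a miRNA gene on their own strand. *Pax3*, at 78097842 to 78193709 of chromosome 1, and *Pax7*, at 139292977 to 139389445 of chromosome 4, overlap no annotated gene.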

How the data were processed

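Reads of the 3SEQ libraries were, per the paper's methods, mapped by the authors with Bowtie2 to composite B6 (mm9) and in silico Cast genomes with RefSeq transcripts, and repetitive hits were removed. The deposited expression tables hold raw counts of reads on exons per gene. The deposited allele tables hold estimated counts of B6 and Cast votes, in which each SNP on a read takes an equal share of 1 vote. The deposited genotype table holds homozygous or heterozygous calls that the authors inferred from votes along each chromosome. Other versions and the strand setting are not given in the sources used here. Each F1 embryo has 2 sequencing runs in the labels and 1 column in the tables, taken as their sum.

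Counts were divided by the total on genes to give RPM. Levels were not compared between genes. Of 168 N2 columns, 8 whose labels name no cross and 6 without genotypes were not used, leaving 154. All 8 members entered every test whose minimum they met, fitted and adjusted over all genes. Somite number used Spearman's correlation (mean of at least 1 RPM), mother a Mann-Whitney U test, F1 litters edgeR with TMM scaling and its default expression filter, and alleles a paired test on votes per 1000000 reads. Parent of origin used an exact permutation test, and own genotype a rank-sum test on residuals of log2(RPM + 0.5), with sex set by the gap in *Xist* and principal components in place of the study's PEER factors. Named neighbours were at most 3 genes per list with the smallest q for somite number and the 3 genes closest to each member in lane-regressed N2 values with a mean of at least 5 RPM, and 1 gene that this rule names is not reported here. Alternatives covered minimum levels, pseudocounts, lane, litter, mother, flowcell, depth, tool and leaving embryos or lanes out. Analyses used Python 3.11.15, SciPy 1.17.1, R 4.3.3, edgeR 4.0.16, limma 3.58.1 and DESeq2 1.42.0, and the tests were tried on simulated data. The members and gene lists were chosen with earlier results of these data known.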

Additional observations from a re-analysis of the deposited data

Results flagged for a closer look

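In 30 sets of 4 to 10 F1 embryos, 3 had an embryo whose gap to the others exceeded Dixon's 95% critical value, which chance gives in about 1 in 20 sets. For *Pax1*, embryo 1-3 of Cast × B6 had a B6 allele fraction of 0.281, where the other 7 had 0.434 to 0.526. For *Pax7*, embryo 3-1 of B6 × Cast, the embryo with 63 somites, had 2.56 RPM, where the other 7 had 4.99 to 7.15 RPM. For *Pax6*, embryo 5-7 of B6 × Cast had an allele fraction of 0.75, where the other 5 with votes had 0 to 0.2, but the 6 embryos held 18 votes in all.

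The change with somite number differed between embryos of B6 and of F1 mothers in an edgeR test of the interaction, by -0.40 log2 per somite for *Pax3*, -0.37 for *Pax6* and -0.32 for *Pax9*. These 3 of 7 members are about the same share as the 42.0% of 13145 genes that passed this test. With litter as a random block in limma voom none of the 7 members tested passed.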

How the results depend on the processing

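For somite number the count of members called was 2. It went to 0 with lane regressed out (10.1% of all genes) and 0 on litter means (230 of 13145 genes). In edgeR with lane as a covariate it was also 0 (1179 of 13145 genes). It was 1 (*Pax3*) in limma voom with litter as a random block (567 of 13145 genes). It was 4 in embryos of B6 mothers only (48.4% of all genes) and 2 in those of F1 mothers (*Pax6* and *Pax8*, 20.4% of genes). In flowcell 1 it was 3 (*Pax1*, *Pax2* and *Pax8*, 13.3% of genes), where *Pax3* was lost. Without any 1 lane it was 1 to 2, where 1483 to 3868 of 13145 genes were called. *Pax3* turned from -0.229 to 0.088 in embryos of F1 mothers. For mother, the count of 0 went to 2 (*Pax1* and *Pax2*) with Benjamini-Hochberg adjustment at 0.05, which 26.3% of all genes passed. For allele-specific expression the count of 1 went to 0 with F1 embryos only (1085 of 11598 genes). For own genotype the count of 1 went to 2 with 5 principal components (22.4% of all genes) and 2 in embryos with at least 1000000 reads (24.0%). The count was 0 in embryos of F1 mothers (1247 of 12722 genes). The count stayed at 1 with lane, sex and somite number only (16.0%), with no covariates (11.3%) and in edgeR. In these 3 settings the member called was *Pax7*, and *Pax1* was lost. Leaving out each F1 embryo gave 2 to 3 calls in B6 × Cast and 1 to 2 in Cast × B6, where *Pax2* was gained without embryo 1-1. Between the litters closest in stage it gave 0 to 1, where *Pax2* was gained without 5-3 or 5-4. DESeq2 gave 2 in that contrast (13.7% of genes). For the fits without 1 embryo the shares over all genes are not given here, so these counts are not read as a result about the members. Leaving out lanes, the depth minimum, the test without lanes A and B and the interactions were chosen after seeing the data. The cause of these changes was not tested. Embryos could not be paired between groups, because embryo numbers are counted within litters and pair no embryos across groups. The allele test paired the B6 and Cast votes within each embryo. Heterozygous and homozygous littermates were not compared within litters. Depth limits *Pax5* in all N2 values and the allele fractions of *Pax3*, *Pax5*, *Pax6*, *Pax8* and *Pax9*.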
